A study of Saccharomyces cerevisiae with 6 samples.

Results

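The genes described here encode the enzymes that break down glycine and move single carbon units on folate in the budding yeast Saccharomyces cerevisiae. They are GCV1, GCV2, GCV3, LPD1, SHM1, SHM2, MIS1, ADE3 and MTD1, chosen by name for their function, 9 of the 5449 yeast genes measured. Each had 1 probe set. The study set cells labelled gpm1, a knock-out of the glycolytic enzyme phosphoglycerate mutase, against cells labelled wild type (WT), with 3 one-colour Affymetrix arrays for each label. By the labels every culture grew in batch with ethanol and glycerol as carbon sources. The labels name no strain background, allele or marker and no number of clones. They name no independent cultures either, so a p-value here reflects the spread among these samples alone, and that spread may be technical. In bulk RNA, fewer cells of a kind and less RNA per cell cannot be told apart.

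The glycine cleavage system of the mitochondrion splits glycine into carbon dioxide, ammonia and a carbon unit that is loaded onto tetrahydrofolate. Serine hydroxymethyltransferases make glycine from serine and load the same carrier, and a set of folate dehydrogenases and synthases then oxidises or reduces the unit for purine, thymidylate and methionine synthesis. In yeast, several of these genes are known to answer to glycine and to be repressed by adenine through the transcription factors Bas1 and Pho2, together with the purine genes.

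The deleted gene went against the labels. GPM1 (YKL152C) read 12.51, 12.48 and 11.82 log2 units on the gpm1-labelled arrays and 5.16, 5.12 and 5.17 on the WT-labelled ones, where the 95th percentile of 1746 background probe sets was 6.09. Groups are therefore named only by their labels, and every direction below is that of the labelled groups and not of the genotype. The 3 gpm1-labelled arrays also stood apart from each other, with a median SD over all genes of 0.248 among them and 0.0484 among the WT-labelled arrays. The poly-A control transcripts, added to RNA before labelling, averaged 7.14, 6.67 and 6.21 on labelled gpm1 replicates 1, 2 and 3, and 5.92 to 6.22 on the WT-labelled arrays. The difference between the 3' and 5' probe sets of ACT1, a measure of RNA integrity, was 0.65, 0.47 and 0.46 on the same 3 arrays and 0.46 to 0.58 on the WT-labelled ones. The part of these controls in the results below was not tested. All 9 genes were above the background percentile on every array, with values from 7.80 to 11.97.

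The 9 genes differed widely among the gpm1-labelled arrays themselves. On replicate 1 the genes GCV1, GCV2, GCV3, SHM2 and MTD1 were at least 2-fold under the mean of the WT-labelled arrays, which is 5 of 9 genes where 6.53% of all genes were that low. On replicate 2 this held for GCV2 and MTD1, 2 of 9 where 3.96% of all genes were. On replicate 3 it held for 0 of 9, where 0.936% of all genes were, and 8 of the 9 lay at or above the WT-labelled mean. None of the 9 was at least 2-fold higher on any of these arrays, where 4.96%, 3.01% and 0.0184% of all genes were in replicates 1, 2 and 3. These are single arrays, so the shares are descriptions without a test. Every fold takes the deposited values as log2, a base read from their range.

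**Figure D1:**
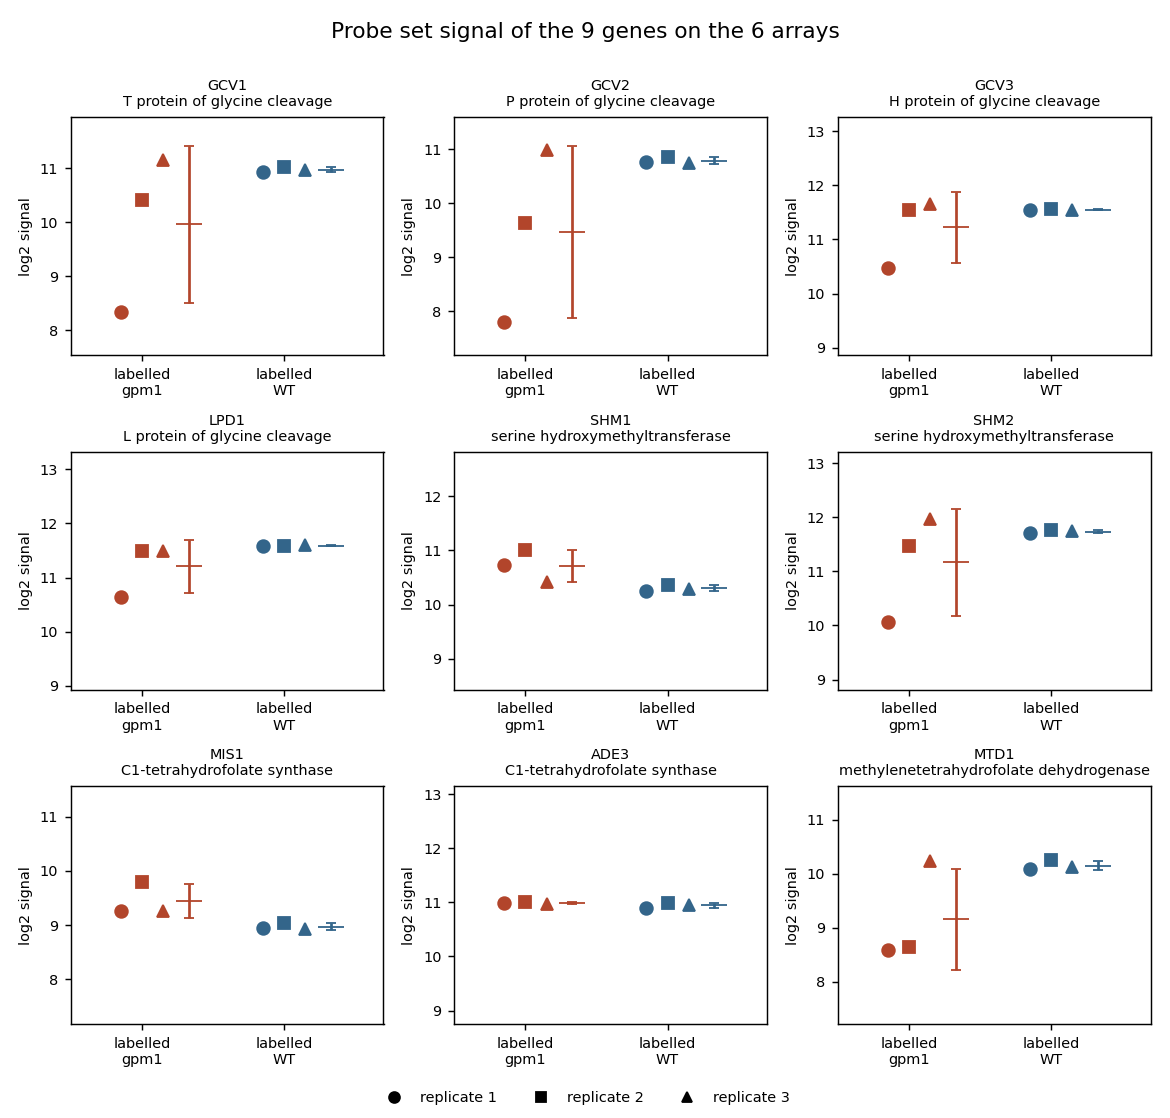
Probe set signal in log2 units of the 9 genes on the gpm1-labelled arrays (red, left) and the WT-labelled arrays (blue, right), with 1 point per array, the mean as a short line and the SD as a bar (n = 3). Every panel spans the same number of log2 units. GCV1 and GCV2 spread widely among the gpm1-labelled arrays, from 8.34 to 11.14 and from 7.80 to 10.98, while ADE3 stayed between 10.89 and 11.00 on all arrays.

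Among the glycine cleavage genes, the P protein gene GCV2 (YMR189W) had the widest spread. Its product is the glycine decarboxylase subunit that takes the carboxyl group off glycine. It read 7.80, 9.63 and 10.98 on labelled gpm1 replicates 1, 2 and 3, and 10.76, 10.86 and 10.74 on the WT-labelled arrays. Replicates 1 and 2 were low and replicate 3 was above every WT-labelled array, so the groups overlapped in range. Against the WT-labelled mean, GCV2 was 7.92-fold lower on replicate 1, rank 10 from the lowest of 5449 genes, and 2.23-fold lower on replicate 2. Its SD among the gpm1-labelled arrays, 1.60, was the 3rd highest of all genes.

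GCV1 (YDR019C) encodes the T protein, which hands the carbon unit to tetrahydrofolate and frees ammonia. It read 8.34, 10.41 and 11.14 on the gpm1-labelled arrays and 10.92, 11.01 and 10.97 on the WT-labelled ones. The order of the 3 gpm1-labelled arrays was that of GCV2, with replicate 1 lowest and replicate 3 above all WT-labelled arrays. On replicate 1 GCV1 was 6.18-fold lower than the WT-labelled mean, rank 19 from the lowest, and on replicate 2 it was 1.47-fold lower. Its SD of 1.45 ranked 8 among all genes.

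GCV3 (YAL044C) encodes the H protein, whose lipoyl arm carries the intermediate between the other subunits. It read 10.47, 11.55 and 11.65 on the gpm1-labelled arrays and 11.54, 11.56 and 11.55 on the WT-labelled ones. Only replicate 1 of the gpm1-labelled arrays was below the range of the WT-labelled arrays, by 2.12-fold from their mean, while replicate 2 lay inside that range and replicate 3 above it. GCV3 thus differed from GCV1 and GCV2 on replicate 2, where its log2 difference from the WT-labelled mean was -0.0012, against -0.56 for GCV1 and -1.16 for GCV2.

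LPD1 (YFL018C) encodes the L protein, dihydrolipoamide dehydrogenase, which reoxidises the lipoyl arm and also serves the pyruvate and 2-oxoglutarate dehydrogenase complexes. It read 10.65, 11.48 and 11.48 on the gpm1-labelled arrays and 11.58, 11.59 and 11.61 on the WT-labelled ones. The groups did not overlap. Most of the difference came from replicate 1, 1.92-fold below the WT-labelled mean, while replicates 2 and 3 were each 1.08-fold below it.

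The serine hydroxymethyltransferase genes lay on opposite sides of the WT-labelled mean on replicates 1 and 2. SHM2 (YLR058C), for the cytosolic enzyme, read 10.06, 11.47 and 11.97 on the gpm1-labelled arrays and 11.71, 11.76 and 11.74 on the WT-labelled ones. It had the order of GCV1 and GCV2, 3.20-fold below the WT-labelled mean on replicate 1, 1.20-fold below on replicate 2 and 1.18-fold above on replicate 3. SHM1 (YBR263W), for the mitochondrial enzyme, read 10.72, 11.00 and 10.42 on the gpm1-labelled arrays and 10.25, 10.36 and 10.29 on the WT-labelled ones. All 3 gpm1-labelled arrays were above all 3 labelled WT, and replicate 2, not replicate 1, was farthest from them, at 1.63-fold.

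The 3 folate dehydrogenase and synthase genes had 3 different patterns. MIS1 (YBR084W), for the mitochondrial C1-tetrahydrofolate synthase, an enzyme with dehydrogenase, cyclohydrolase and synthetase activities, read 9.25, 9.80 and 9.26 on the gpm1-labelled arrays and 8.94, 9.04 and 8.93 on the WT-labelled ones. Like SHM1, it was higher on every gpm1-labelled array than on any labelled WT array, and farthest on replicate 2 at 1.77-fold. ADE3 (YGR204W), for the cytosolic enzyme of the same activities, read 11.00, 11.00 and 10.97 on the gpm1-labelled arrays and 10.89, 10.98 and 10.96 on the WT-labelled ones. Among the gpm1-labelled arrays ADE3 was one of the steadiest genes, with an SD of 0.015, rank 37 from the lowest of 5449. Its SD among the WT-labelled arrays was larger, at 0.046, near the median of 0.0484 over all genes there.

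MTD1 (YKR080W) encodes a cytosolic methylenetetrahydrofolate dehydrogenase that uses NAD. It read 8.59, 8.65 and 10.24 on the gpm1-labelled arrays and 10.08, 10.25 and 10.12 on the WT-labelled ones. Here replicates 1 and 2 were about equally low, by 2.95-fold and 2.84-fold from the WT-labelled mean, and replicate 3 lay inside the range of the WT-labelled arrays. Among all genes MTD1 was rank 126 from the lowest on replicate 1 and rank 71 on replicate 2.

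**Figure D2:**
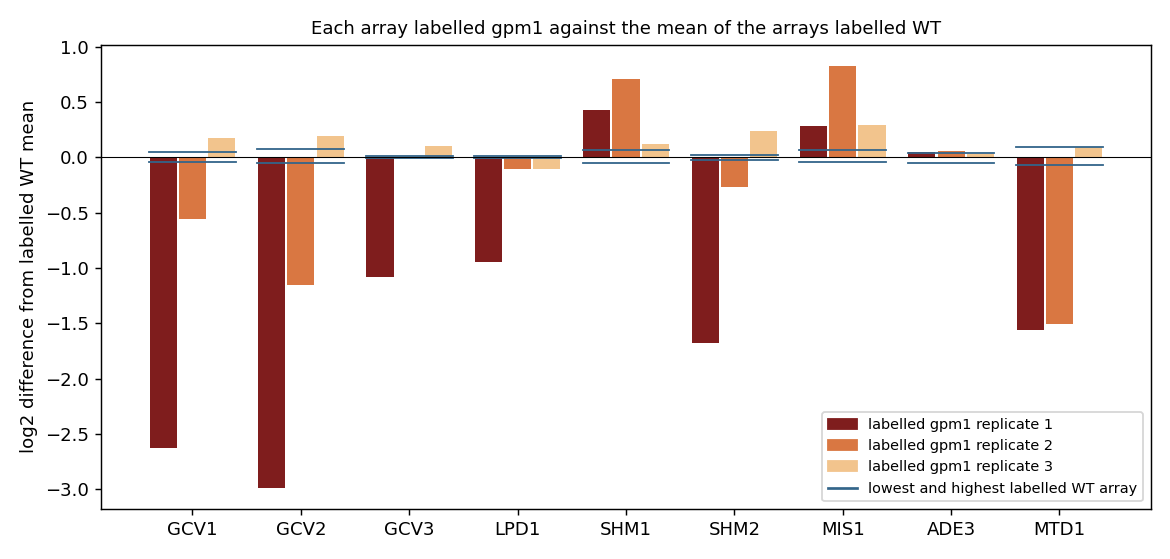
Log2 difference of each gpm1-labelled array from the mean of the WT-labelled arrays, for the 9 genes, with blue lines at the lowest and highest WT-labelled array. Bars for replicate 1 reach -2.98 for GCV2 and -2.63 for GCV1, those for replicate 2 reach -1.50 for MTD1, and those for replicate 3 lie between -0.11 and 0.29.

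The labelled groups were then compared with limma over all 6 arrays, with Benjamini-Hochberg adjustment over the 5449 genes. Of the 9 genes 0 passed an adjusted p of 0.05, where 0.807% of all genes did (0.0184% as higher and 0.789% as lower). MIS1 and SHM1, 2 of the 9, had an unadjusted limma p under 0.05, as did 1223 of all genes, or 22.4%, so this share is near the background. MIS1 averaged 9.44 ± 0.31 on the gpm1-labelled arrays and 8.97 ± 0.06 on the WT-labelled ones (SD, n = 3), a log2 difference of 0.47 (limma SE 0.16, adjusted p = 0.204). SHM1 averaged 10.71 ± 0.29 on the gpm1-labelled arrays and 10.30 ± 0.06 on the WT-labelled ones (SD, n = 3), a difference of 0.42 (limma SE 0.16, adjusted p = 0.211).

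The low values on replicates 1 and 2 gave mean differences with wide errors. GCV2 averaged 9.47 ± 1.60 on the gpm1-labelled arrays and 10.79 ± 0.07 on the WT-labelled ones (SD, n = 3). Its log2 difference was -1.32 with a 95% interval of -3.10 to 0.47 (limma adjusted p = 0.309). For GCV1 the difference was -1.0, with an interval of -2.63 to 0.62 (limma adjusted p = 0.376), and for MTD1 it was -0.99, with an interval of -2.05 to 0.07 (limma adjusted p = 0.235). These intervals reach from a difference of more than 2-fold to none, so the arrays do not settle the mean difference of these genes.

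SHM2 at -0.57, LPD1 at -0.39 and GCV3 at -0.33 had adjusted p-values of 0.453, 0.336 and 0.518 by limma. ADE3 had the narrowest interval, -0.15 to 0.24 around a difference of 0.05 (limma adjusted p = 0.733), which does not show that its difference is 0. The median difference of the 9 genes was -0.39 and that of all genes was 0.02. The labelled groups did not overlap for 3 of the 9, LPD1 as lower and SHM1 and MIS1 as higher. Of all genes 34.6% did not overlap (15.4% as lower and 19.2% as higher), so this share is near the background.

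Without replicate 3 of the gpm1-labelled arrays, 4 of the 9 genes passed by limma, where 41.1% of all genes did (21.6% as higher and 19.5% as lower), so the share is near the background. MTD1 then differed by -1.53 (SE 0.08, limma adjusted p = 0.00073) and GCV2 by -2.07 (SE 0.52, limma adjusted p = 0.029). SHM1 differed by 0.56 (SE 0.11, limma adjusted p = 0.012) and MIS1 by 0.55 (SE 0.17, limma adjusted p = 0.049). GCV1, which was low by a different amount on each of the 2 remaining gpm1-labelled arrays, stood at -1.59 (limma adjusted p = 0.082). With all 6 arrays weighted by limma, the same 4 genes passed, where 37.1% of all genes did (18.6% as higher and 18.5% as lower). The weights were 0.13, 0.84 and 0.12 for gpm1-labelled replicates 1, 2 and 3, so the labelled gpm1 mean rested mostly on replicate 2.

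Without replicate 1 in place of replicate 3, 0 of the 9 genes passed, where 1.10% of all genes did (0.0367% as higher and 1.06% as lower). The log2 difference was then -0.48 for GCV2, -0.19 for GCV1, -0.02 for SHM2 and 0.049 for GCV3, so the low means of these 4 genes rested largely on that 1 array, and the sign of GCV3 turned. SHM1 stood at 0.41, MIS1 at 0.56 and MTD1 at -0.71. SHM1 and MIS1 were highest on replicate 2, and without it SHM1 stood at 0.27 and MIS1 at 0.29. In that fit 0 of the 9 genes passed, where 0.220% of all genes did (0.0184% as higher and 0.202% as lower). The poly-A controls were highest on replicate 1 (7.14) and also above every WT-labelled array on replicate 2 (6.67). On replicate 3 (6.21) they lay inside the range of the WT-labelled arrays. Their part in these differences was not tested.

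**Figure D3:**
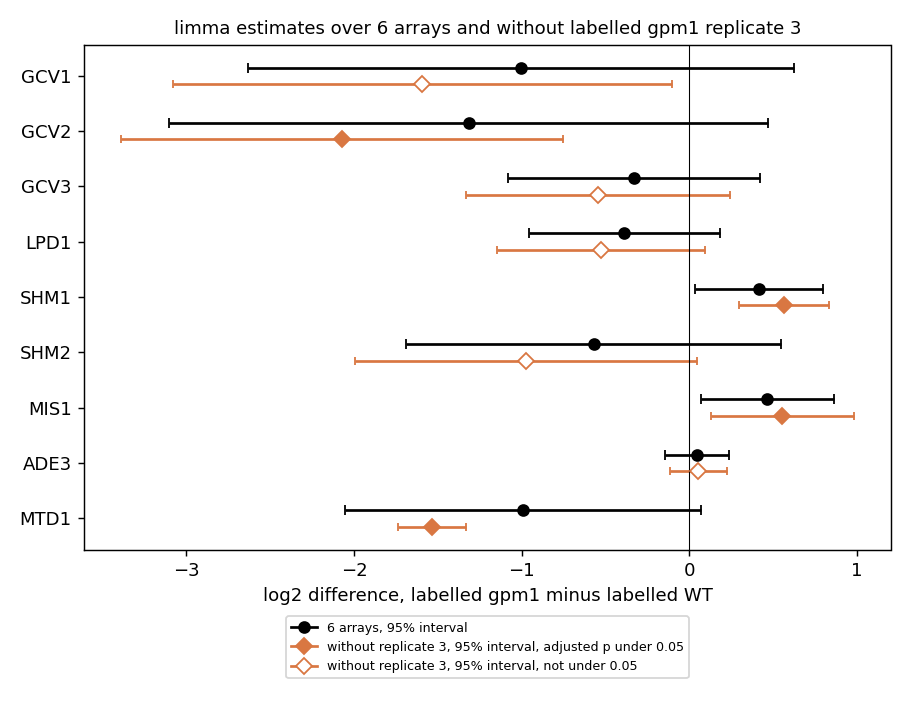
Log2 difference, labelled gpm1 minus labelled WT, for the 9 genes by limma, with 95% intervals, over 6 arrays (black circles) and without labelled gpm1 replicate 3 (orange diamonds, filled where the adjusted p was under 0.05). The intervals over 6 arrays cross 0 for all genes except SHM1 and MIS1, and the filled diamonds are GCV2, SHM1, MIS1 and MTD1.

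Because yeast has a mitochondrial and a cytosolic enzyme for both the serine hydroxymethyltransferase and the C1-tetrahydrofolate synthase reactions, the log2 difference between the isozymes within each array was compared between labels for 2 pairs. With the WT-labelled mean set to 0, SHM1 minus SHM2 was 2.10, 0.97 and -0.12 on the gpm1-labelled arrays and -0.03, 0.04 and -0.01 on the WT-labelled ones. Replicates 1 and 2 stood far above the WT-labelled arrays and replicate 3 below them, and the mean difference of 0.99 gave p = 0.4 in an exact two-sided permutation test. MIS1 minus ADE3 was 0.23, 0.77 and 0.26 on the gpm1-labelled arrays and 0.02, 0.03 and -0.05 on the WT-labelled ones. Here the groups did not overlap, and the mean difference of 0.42 gave p = 0.1 in the same exact test, the smallest that 3 against 3 arrays allow. Groups of 3 that do not overlap always give this p. ADE3 differed by only 0.05 between the labels, so the pair difference mostly repeats that of MIS1 (0.47). Adjusted over the 2 pairs, the exact permutation p-values were 0.4 and 0.2. Whether the probe sets of the isozymes share signal was not checked, since no probe sequences were used.

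**Figure D4:**
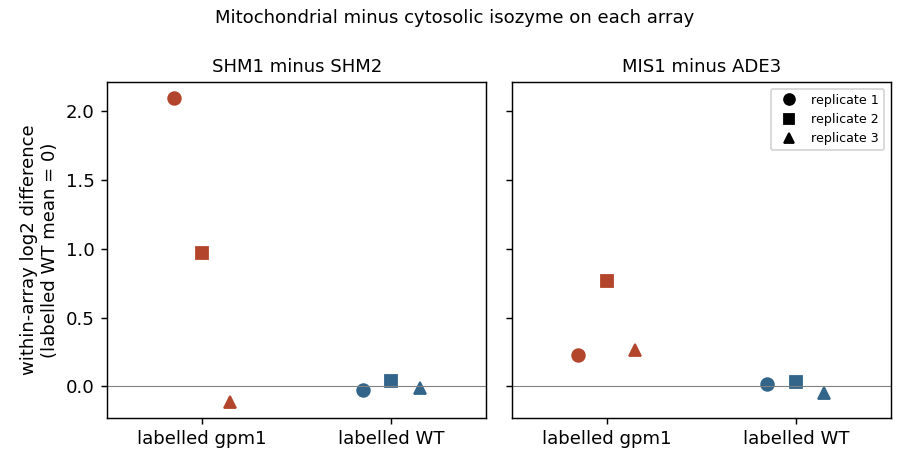
Within-array log2 difference of the mitochondrial minus the cytosolic isozyme gene, with the WT-labelled mean at 0, for each gpm1-labelled array (red, left) and WT-labelled array (blue, right). SHM1 minus SHM2 reaches 2.10 on labelled gpm1 replicate 1 and is -0.12 on replicate 3, and MIS1 minus ADE3 lies above all WT-labelled arrays on all 3 gpm1-labelled arrays.

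Genes that connect to these enzymes were read from 7 lists chosen by function, and 0 of their 45 measured genes passed by limma over 6 arrays (0.807% of all genes did, and 5 of the 45, or 11.1%, had an unadjusted p under 0.05, against 22.4% of all genes). Without labelled gpm1 replicate 3, 10 of the 45 passed, 5 as higher and 5 as lower. This is a smaller share than the 41.1% of all genes that did. Higher were SER2, PHO2, LIP5, PDX1 and LAT1, and lower were ADE2, ADE4, MET13, ADE8 and GLY1. On replicate 1 the purine and serine and glycine lists lay lowest, as did most of the 9 genes.

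The purine synthesis genes, which yeast is known to co-regulate with SHM2 and MTD1, had 6 measured members apart from the folate-using transformylases. On replicate 1 all 6 lay below the WT-labelled mean, with a median of -0.90 and 3 at least 2-fold lower, where 6.53% of all genes were. On replicate 2 the median was -0.15, with 5 below, and on replicate 3 it was 0.13, with 0 below. ADE4, for the first enzyme of the pathway, read 8.28, 8.96 and 10.30 on the gpm1-labelled arrays and 10.04, 10.16 and 10.07 on the WT-labelled ones, the array order of GCV1, GCV2 and SHM2 (limma difference -0.91, adjusted p = 0.286). That order is not particular to these genes. The main axis of variation over all genes (first principal component, 73.8% of the variance) also put replicate 1 farthest from the WT-labelled arrays. Along it replicates 1, 2 and 3 lay at 33.3, 20.1 and -7.3, and the WT-labelled arrays at -15.9 to -14.6. ADE2, for phosphoribosylaminoimidazole carboxylase, read 9.80, 10.16 and 10.96 on the gpm1-labelled arrays against a WT-labelled mean of 10.95 (limma difference -0.65, adjusted p = 0.236).

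Of the regulators, PHO2, a homeodomain factor that acts with Bas1, read 8.18, 8.08 and 7.59 on the gpm1-labelled arrays and 7.60 ± 0.02 on the WT-labelled ones (SD, n = 3). Its difference of 0.35 did not pass over 6 arrays (limma adjusted p = 0.253). GCN4, the activator of amino acid synthesis genes, differed by -0.14 (limma adjusted p = 0.329). All 3 gpm1-labelled arrays were under the WT-labelled ones, as for 15.4% of all genes. The third, BAS1, differed by -0.02.

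Among 10 genes that use folate-bound carbon units, MET13 and MET6 had the lowest mean differences and CDC21 the highest. MET13, for the methylenetetrahydrofolate reductase that commits the unit to methionine, read 7.54, 8.19 and 9.27 on the gpm1-labelled arrays and 9.23, 9.23 and 9.25 on the WT-labelled ones (limma difference -0.91, adjusted p = 0.241). MET6, for methionine synthase, read 9.99, 11.47 and 12.10 on the gpm1-labelled arrays and 11.98, 12.02 and 11.97 on the WT-labelled ones (limma difference -0.80, adjusted p = 0.347). Both were low on replicates 1 and 2 and at or above labelled WT on replicate 3. Without replicate 3, MET13 passed at -1.38 (limma adjusted p = 0.0050), and so did ADE8, for a purine transformylase, at -0.62. In that fit 41.1% of all genes passed. CDC21, for thymidylate synthase, read 9.04, 8.22 and 8.07 on the gpm1-labelled arrays and 7.92 ± 0.04 on the WT-labelled ones (SD, n = 3). The gpm1-labelled arrays were all higher, as for 19.2% of all genes (limma difference 0.52, adjusted p = 0.257). MET12, for the other methylenetetrahydrofolate reductase, stood at -0.09 (limma adjusted p = 0.631). The median of the list was -0.25, -0.16 and 0.05 on the 3 arrays in turn.

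The genes that make folate and tie it to its polyglutamate tail lay near the WT-labelled mean. Their 8 members had medians of 0.0052, 0.08 and 0.08 on the 3 gpm1-labelled arrays, and 0 were 2-fold lower or higher on any of them. MET7, for folylpolyglutamate synthetase, stood at 0.31 (limma adjusted p = 0.211) and FOL1, for a multifunctional enzyme of folate synthesis, at 0.29 (limma adjusted p = 0.315).

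The 6 partners of LPD1 in the pyruvate and 2-oxoglutarate dehydrogenase complexes lay on both sides of the WT-labelled mean on replicate 1, with 3 below it. Their median was 0.01, 0.36 and 0.05 on replicates 1, 2 and 3, where LPD1 was -0.94, -0.11 and -0.11 and the median of all genes was 0.05, -0.0060 and 0.02. KGD1, for the 2-oxoglutarate dehydrogenase subunit, read 9.45, 10.85 and 10.95 on the gpm1-labelled arrays and 10.86, 10.88 and 10.99 on the WT-labelled ones, low on replicate 1 as LPD1 was (limma difference -0.49, adjusted p = 0.451). KGD2, for the succinyltransferase core of the same complex, lay at -0.54, 0.07 and -0.10 on the 3 gpm1-labelled arrays (limma difference -0.19, adjusted p = 0.478). PDX1, for the subunit that holds LPD1's product in the pyruvate dehydrogenase complex, read 9.43, 9.15 and 8.70 on the gpm1-labelled arrays, against a mean of 8.74 on the WT-labelled ones, high on replicates 1 and 2 (limma difference 0.36, adjusted p = 0.282). LAT1, for its acetyltransferase core, stood at 0.27 (limma adjusted p = 0.223).

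In the list for lipoate attachment and glycine import, LIP5, for lipoate synthase, read 9.57, 9.73 and 9.31 on the gpm1-labelled arrays and 9.11, 9.16 and 9.23 on the WT-labelled ones. The groups did not overlap, as for 34.6% of all genes, and the difference of 0.37 did not pass (limma adjusted p = 0.201). LIP2, for the octanoyltransferase of the same pathway, stood at -0.09 (limma adjusted p = 0.832). On replicate 1 LIP2 and AIM22 lay at -0.69 and -0.64, on the other side of the WT-labelled mean from LIP5 at 0.40. The mean difference was -0.07 for AIM22, 0.06 for HEM25, the glycine import gene, and 0.08 for ACP1.

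Serine and glycine supply, which feeds both glycine cleavage and the serine hydroxymethyltransferases, held AGX1, for the aminotransferase that makes glycine from glyoxylate. AGX1 read 9.28, 11.67 and 11.94 on the gpm1-labelled arrays and 11.93 ± 0.02 on the WT-labelled ones (SD, n = 3). It was thus low on replicate 1, at rank 17 from the lowest, close to GCV1 at rank 19 (limma difference -0.97, adjusted p = 0.394). On replicate 2 it was only 1.20-fold below the WT-labelled mean, rank 1419 from the lowest. GLY1, for threonine aldolase, was below labelled WT on all 3 gpm1-labelled arrays, at -1.18, -0.76 and -0.45 (limma difference -0.80, adjusted p = 0.171). SER2, for phosphoserine phosphatase, lay above it on all 3, at 1.08, 0.62 and 0.23 (limma difference 0.64, adjusted p = 0.196). The rest of the list went the other way in the mean: SER3 by -0.53, SER33 by -0.32, CHA1 by -0.60 and SER1 by -0.08. Without replicate 3, SER2 passed as higher (limma adjusted p = 0.0087) and GLY1 as lower (limma adjusted p = 0.0083), where 41.1% of all genes passed.

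**Figure D5:**
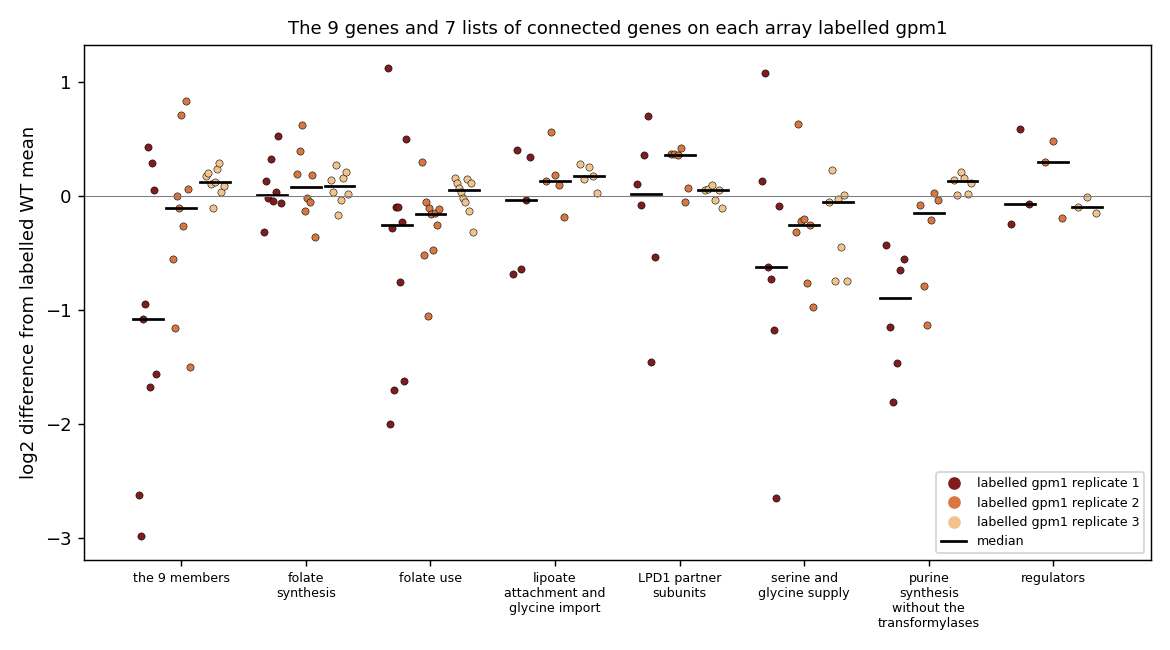
Log2 difference from the WT-labelled mean of the 9 genes and of the measured genes of 7 lists, on labelled gpm1 replicates 1, 2 and 3, with 1 point per gene and black lines at the medians. The medians on replicate 1 are -1.08 for the 9 genes, -0.90 for purine synthesis and -0.62 for serine and glycine supply, and 0.0052 for folate synthesis.

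To place the patterns among all genes, the 5 genes nearest to GCV2 and to SHM1 were taken by Euclidean distance of the 3 log2 differences from the WT-labelled mean, the 9 genes themselves left out. The distance rests on 3 arrays that share 1 set of WT-labelled arrays. Nearest to GCV2 were SUL1, for a sulfate permease, MEP2, for an ammonium permease, ARO1, for a multifunctional enzyme of aromatic amino acid synthesis, FBP1, for fructose-1,6-bisphosphatase, and FAT3, at distances of 0.35 to 0.74 log2 units. SUL1 lay at -3.01, -1.51 and 0.17 on the 3 arrays, where GCV2 lay at -2.98, -1.16 and 0.19. Nearest to SHM1 were UAF30, RAT1, LSM1, NUP85 and URB2, at distances of 0.07 to 0.08. UAF30, for a subunit of an RNA polymerase I activation factor, lay at 0.47, 0.70 and 0.08, where SHM1 lay at 0.42, 0.70 and 0.12. SHM1's neighbours were thus far closer to it than those of GCV2 were to GCV2, whose differences lie among the largest on the array.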

How the data were processed

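Probe sets of 6 one-colour arrays were summarised by the authors with PLIER, per the submitters' processing notes, and the deposited values were taken to be log2 from their range of 4.88 to 13.12. Its version, any offset and the scaling between arrays are unstated in the sources used here, and every fold rests on base 2. The platform annotation listed 7245 of 10928 probe sets, and 5498 were matched by gene ID to the S. cerevisiae R64 gene table, used for names only. The brightest probe set per gene was kept, which left 5449 genes. The background was 1746 listed probe sets whose gene ID was not in that table.

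Labelled gpm1 minus labelled WT was tested with limma 3.58.1 (lmFit, eBayes) in R 4.3.3, two-sided, with Benjamini-Hochberg adjustment over all genes and a threshold of 0.05. The number of arrays limits the precision. Isozyme pairs were tested with an exact permutation test. The fit was tested on simulated data in which both groups of a gene had the same spread, unlike the labelled groups here. The members, lists and tests were chosen with earlier results of these data known. Genes named from each list were those past the threshold, else the one with the smallest p, and the 2 with the largest difference. ACP1, ADE8, AIM22, BAS1, CDC21, CHA1, HEM25, KGD2, MET12, SER1, SER2, SER3 and SER33 were named after their values were seen. ADE57 was not analysed here. Replicate numbers did not pair the arrays: over genes, deviations of same-numbered arrays correlated at 0.05, 0.02 and -0.13. Alternatives were quantile normalization, median centring, offsets of 16 and 64, a filter on the dimmest 20% of genes, averaging probe sets, all yeast probe sets, a trend and robust prior, array weights, a replicate block and leaving out each array. Plots used matplotlib 3.10.9 in Python 3.11.15.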

Additional observations from a re-analysis of the deposited data

How the results depend on the processing

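Over 6 arrays 44 of all genes, 0 of the 9 members and 0 of the 45 list genes passed. With array weights, which gave labelled gpm1 replicates 1, 2 and 3 weights of 0.13, 0.84 and 0.12 and the arrays labelled WT 3.17 to 5.45, the counts were 2023 (37.1%), 4 and 11. Leaving out 1 array gave 11 to 2240 of all genes, 0 to 4 members and 0 to 10 list genes, with the highest counts without labelled gpm1 replicate 3. The count over all genes was 12 without labelled gpm1 replicate 2, and 11, 19 and 13 without labelled WT replicates 1, 2 and 3. With the replicate block 31 of all genes and 0 members passed, and the numbers do not pair the arrays. Averaging probe sets, all yeast probe sets, the filter, the trend and robust prior and the replicate block could not change the members' log2 differences. Under those settings only the adjusted p could move. In 135 of 144 repeats over the 9 genes and 16 settings the direction and the side of the threshold were kept. In 8 a call was gained, for GCV2, SHM1, MIS1 and MTD1 with array weights and without labelled gpm1 replicate 3. In 1 the sign turned, for GCV3, at 0.049 without labelled gpm1 replicate 1, in a range from -0.54. With 1 array left out the isozyme difference ranged from 0.43 to 1.54 for SHM1 minus SHM2 and from 0.25 to 0.52 for MIS1 minus ADE3. The causes were not tested. All 9 genes were above background on every array.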
